A study of Mus musculus with 16 samples.

Results

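Cdkn2b, Cdkn2a, Gm12606, Pitx1, Atg9b and Strc were followed over 16 MC38 tumors. They are 6 of the 53465 genes in the table, and all 6 are among the 18251 genes that passed the filter on low counts and were tested. Atg9b, Gm12606, Strc, Pitx1 and Cdkn2b were selected on the measured values, by their log2 fold change in responders against non-responders. They were the 5 lowest of the called genes whose counts averaged 100 or more and whose 2 responder values lay under those of all non-responders. Cdkn2a was added because it lies next to Cdkn2b. For the 5 selected genes, every value of responders against the other groups is therefore a description without a test.

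MC38 is a mouse colon carcinoma line. It was grown under the skin of the right flank of female C57BL/6 mice aged 6 to 8 weeks, from 1000000 injected cells, and mice entered the study with tumors of 150 to 250 mm3 on day 16. The 8 IgG control mice received control IgG and the 8 others aPD-1, an antibody that blocks the PD-1 receptor of T cells, each at 200 µg on days 16 and 20, and tumors were taken on day 21. Of the aPD-1 tumors, 6 were designated non-responders and 2 responders by their CD8 T cell staining, so the responder group was defined by T cell infiltration and holds only 2 mice. The staining used a formalin-fixed part of each tumor. Poly(A) RNA from sections of another, frozen part was sequenced, which mixes carcinoma, immune and stromal cells. In such bulk RNA, fewer cells of a type and less RNA per cell cannot be told apart.

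Cdkn2b encodes p15Ink4b, an inhibitor of the cyclin D kinases CDK4 and CDK6, and is known as a target of TGF-beta signaling. Its neighbor Cdkn2a encodes p16Ink4a, which inhibits the same kinases, and from a separate first exon Arf, which binds Mdm2 and so stabilizes p53. The locus is held silent by polycomb complexes in many dividing cells, is switched on in senescence, and is a frequent site of deletion in cancer. The counts used here are per gene and do not separate the p16Ink4a and Arf transcripts. Among the other genes, Pitx1 encodes a homeodomain transcription factor of hindlimb and pituitary development, Atg9b a transmembrane protein of the autophagy machinery, and Strc stereocilin, an extracellular protein of inner ear hair bundles. Gm12606 is annotated as a long intergenic noncoding RNA, to which no role is assigned here.

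Gm12606, Cdkn2a and Cdkn2b lie beside each other on chromosome 4 of the GRCm38 build, at 89235699 to 89273403, 89274471 to 89294653 and 89306299 to 89311039. A gap of 1067 bases parts Gm12606 from Cdkn2a and one of 11645 bases parts Cdkn2a from Cdkn2b, so that the 3 genes span 75341 bases. The others stand alone, with Strc on chromosome 2 at 121363728 to 121387168, Atg9b on chromosome 5 at 24384181 to 24392143 and Pitx1 on chromosome 13 at 55825051 to 55836192. All 6 are on the minus strand. Of the 121 genes called lower in responders, 45.5% were on the minus strand, against 49.5% of the tested genes, and 4.96% were on chromosome 4, against 5.74%. Long intergenic noncoding RNAs made up 10.7% of these genes and 3.44% of the tested genes.

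The sequences before the start sites of the Cdkn2 locus are shown because its genes are transcribed from 3 separate starts close together. They are from RefSeq (GRCm38.p6), minus strand, 5′ to 3′, and stop where the GENCODE first exon or the RefSeq transcript begins. They cover chr4:89311040-89311282 for Cdkn2b, chr4:89294654-89294869 for the upstream start of Cdkn2a, which gives Arf, and chr4:89282193-89282442 for its downstream start, which gives p16Ink4a. Capitals mark a cAMP response element (TGACGTCA) or a GC box (GGGCGG), each searched on both strands.
Cdkn2b: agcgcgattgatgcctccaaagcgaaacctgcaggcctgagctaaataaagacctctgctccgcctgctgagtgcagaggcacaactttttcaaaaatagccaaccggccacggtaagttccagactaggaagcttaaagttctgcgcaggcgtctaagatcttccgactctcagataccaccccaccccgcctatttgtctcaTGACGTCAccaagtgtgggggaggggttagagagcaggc
Cdkn2a, Arf start: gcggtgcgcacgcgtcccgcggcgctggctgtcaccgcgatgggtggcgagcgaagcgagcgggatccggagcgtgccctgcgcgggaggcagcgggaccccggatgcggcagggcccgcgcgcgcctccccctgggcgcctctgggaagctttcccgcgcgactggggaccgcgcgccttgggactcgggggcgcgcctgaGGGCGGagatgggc
Cdkn2a, p16Ink4a start: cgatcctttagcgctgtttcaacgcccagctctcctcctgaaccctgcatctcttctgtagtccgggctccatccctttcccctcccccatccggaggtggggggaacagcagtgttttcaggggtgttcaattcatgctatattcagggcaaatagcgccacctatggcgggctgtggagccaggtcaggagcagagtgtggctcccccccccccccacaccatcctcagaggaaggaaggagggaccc

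In the whole 250-base windows before the RefSeq starts, the Arf start had 40 CpG pairs and a GC content of 78.4%, the Cdkn2b start 12 and 53.6%, and the p16Ink4a start 7 and 60%. The medians over 32851 RefSeq promoters were 6 CpG pairs and 52.4%. A cAMP response element was found before Cdkn2b, as in 1.55% of all promoters. The Arf window held 2 GC boxes, of which 1 lies in the stretch that GENCODE places in the first exon and is not printed, and 32.7% of promoters held at least 1. No E-box (CACGTG, 6.02% of promoters), SMAD palindrome (GTCTAGAC, 0.167%) or TATA box (TATAAA, 12.4%) was found in the windows of Cdkn2b and Cdkn2a. Of the other members, Strc and Atg9b had an entry. The Atg9b window held 1 bicoid-type site (TAATCC, 6.25% of promoters), the kind of site that PITX proteins are known to bind, and the Strc window held none of the 6 motifs. The Strc entry, at chr2:121380941-121381190, lies inside the gene as GENCODE draws it.

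Levels are given as CPM, the counts of a gene per 1000000 counts of its library after TMM scaling, and differences as log2 fold changes from edgeR's quasi-likelihood fit of all 16 tumors. Total counts lay between 26603477 and 39948874. Mitochondrial genes took 7.60% of the counts in IgG replicate 1, 6.00% in non-responder replicate 9 and 5.73% in non-responder replicate 14, against 2.52% to 3.25% in the other 13 tumors. The same 3 tumors stood apart on the first principal component. IgG replicate 3 stood apart in its composition: its TMM factor was 0.784, against 0.981 to 1.07 in the other 15 tumors, and the chi-square per degree of freedom of its counts against each other tumor was 521.9 to 661, against 16.1 to 331.6 between the others. The gene CT010467.1 took 20.4% of the counts in this tumor and 0.151% to 0.489% in the other tumors. Lars2, mt-Rnr2, mt-Rnr1 and Gm26917 were above all other tumors there too, with 0.782%, 0.842%, 0.520% and 0.214% of the counts. In the other tumors none of these took more than 0.180%. All were named after their values were seen. IgG replicate 3 was the lowest IgG tumor for Cdkn2a, Cdkn2b, Gm12606 and Pitx1. Values of the 6 genes without these tumors follow beside the main values or with the comparison between groups, a choice made after the data were seen. The part of CT010467.1, Lars2, mt-Rnr2, mt-Rnr1 and Gm26917 in them was not tested. Of the intestinal markers, Cdx2 had at most 1 count and Vil1 at most 11 counts in any tumor. The origin of the cells was not tested here.

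Cdkn2b was the best counted of the 6 genes, with 283 to 1348 counts per tumor. In the IgG control tumors it ranged from 18.4 to 35.0 CPM with a median of 26.5, and in the non-responders from 18.7 to 31.1 CPM with a median of 26.5. The 2 responders had 8.69 and 7.96 CPM. Both responders were thus below all 14 other tumors. The log2 fold change was -1.65 (SE 0.26) against non-responders and -1.67 (SE 0.26) against IgG controls, and non-responders stood 3.14-fold above responders.

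Cdkn2a, which was chosen by its position and not by its level, had 42 to 116 counts per tumor. It ranged from 1.57 to 3.18 CPM in IgG controls with a median of 2.49, and from 2.03 to 3.54 CPM in non-responders with a median of 2.74. The responders had 1.66 and 1.63 CPM. They were below all non-responders but overlapped the IgG controls, where 1 tumor, IgG replicate 3, was lower. The log2 fold change was -0.78 (SE 0.29, 95% interval -1.39 to -0.17) against non-responders and did not pass (edgeR, adjusted p = 0.0708). It passed with DESeq2 (adjusted p = 0.0324) and without the 3 tumors of high mitochondrial share (-0.84, edgeR, adjusted p = 0.0299). It also passed without IgG replicate 1 or non-responder replicate 14 alone (-0.85, adjusted p = 0.0371, and -0.86, adjusted p = 0.0490, edgeR). Under every other alternative run it did not pass. With 1 tumor left out, the log2 fold change lay between -0.86 and -0.70. Against IgG controls it was -0.58 (SE 0.28, adjusted p = 0.160), and -0.63 without IgG replicate 3 (edgeR, adjusted p = 0.0960).

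Gm12606 had 156 to 902 counts per tumor and the widest spread among the 6 genes. Its IgG values ran from 7.04 to 34.3 CPM with a median of 11.1, and its non-responder values from 10.8 to 25.6 CPM with a median of 14.9. In the responders it stood at 4.88 and 4.39 CPM. The highest value in each of the other groups belonged to a tumor of high mitochondrial share, IgG replicate 1 and non-responder replicate 9, and both responders lay below all other tumors. The log2 fold change was -1.81 (SE 0.53) against non-responders and -1.55 (SE 0.51) against IgG controls, and without the 3 tumors of high mitochondrial share it was -1.57 and -1.25. The part of the mitochondrial share in these values was not tested beyond this.

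Pitx1 followed a like order. It had 7.19 to 26.8 CPM in IgG controls with a median of 10.4, and 10.4 to 16.1 CPM in non-responders with a median of 12.2. Its responder values were 3.75 and 4.30 CPM, below all other tumors. The log2 fold changes were -1.65 (SE 0.41) against non-responders and -1.53 (SE 0.40) against IgG controls. An antisense gene, Gm47071, overlaps Pitx1 over 9943 bases and differed by -0.04 on the log2 scale between responders and non-responders (edgeR, adjusted p = 0.965).

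Atg9b had 42 to 199 counts per tumor, the responders having 44 and 42. It ranged from 2.97 to 5.36 CPM in IgG controls with a median of 3.13, and from 2.65 to 6.74 CPM in non-responders with a median of 4.58. The responders, at 1.30 and 1.18 CPM, were below all other tumors. Non-responders stood 3.58-fold above responders, the largest ratio of the 6 genes by the choice of members, with log2 fold changes of -1.84 (SE 0.35) against non-responders and -1.51 (SE 0.34) against IgG controls. Nos3, the endothelial nitric oxide synthase gene, overlaps Atg9b by 294 bases on the opposite strand. It had 13.3 and 4.27 CPM in the responders, so that 1 responder was above all 14 other tumors and the other was within their range of 2.10 to 6.97 CPM. The strand setting of the counting is not given in the sources used here, so reads of the shared bases could have been given to either gene.

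Strc had 116 to 566 counts per tumor. Its range was 8.24 to 20.5 CPM in IgG controls with a median of 11.3, and 9.65 to 17.3 CPM in non-responders with a median of 13.5. Responder values of 3.43 and 4.81 CPM were below all other tumors. The log2 fold changes were -1.69 (SE 0.33) against non-responders and -1.54 (SE 0.32) against IgG controls.

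**Figure D1:**
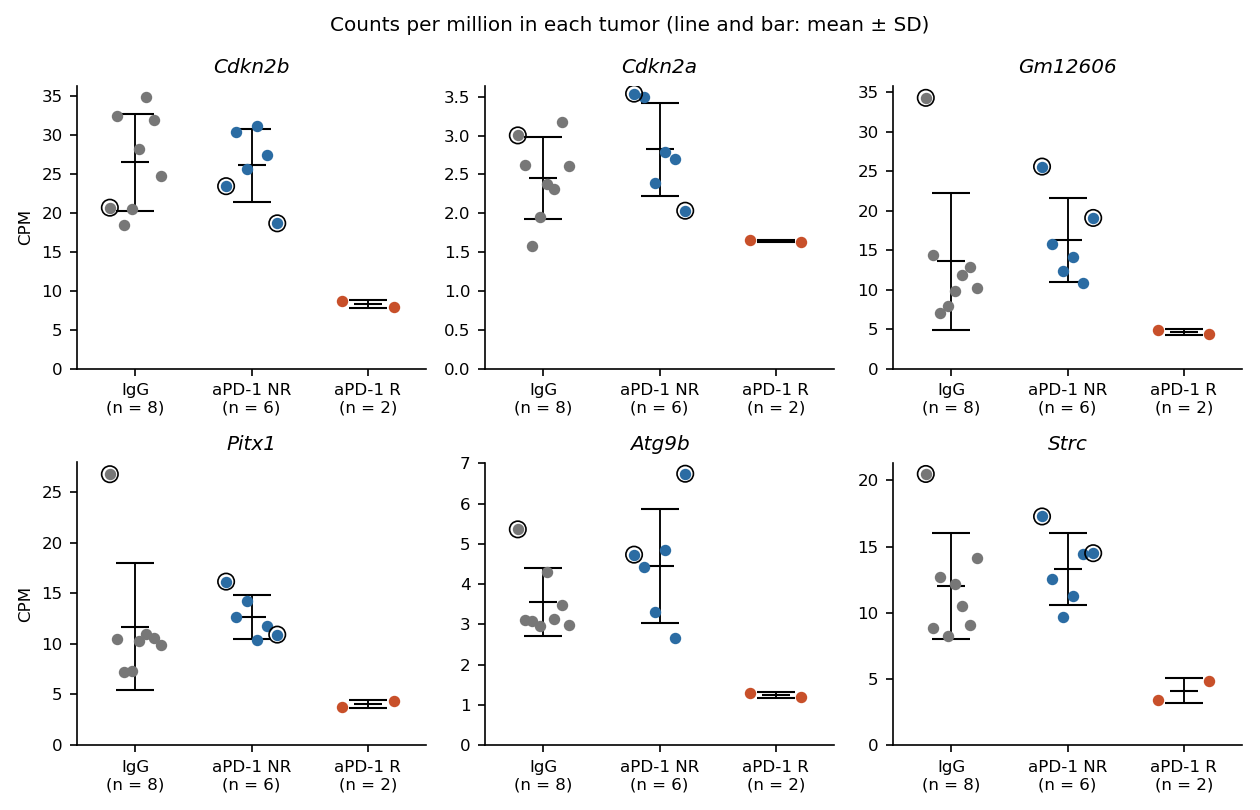
CPM (vertical axes, from 0) of the 6 genes in each of the 8 IgG control, 6 aPD-1 non-responder (NR) and 2 aPD-1 responder (R) tumors, with the mean and SD of each group and a ring around the 3 tumors of high mitochondrial share. For Cdkn2b, Gm12606, Pitx1, Atg9b and Strc both responders sit below every other tumor, and for Cdkn2a they overlap the IgG controls.

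By the contrast that selected them, 5 of the 6 genes were called lower in responders than in non-responders (log2 fold change below -1 at an adjusted p under 0.05), as were 0.663% of the tested genes, and the rule fixed this count. All 6 had both responders below all non-responders, against 13.2% of the tested genes, again fixed by the rule for 5 of them. Against the IgG controls 5 were called lower, where 0.641% of the tested genes were, and 5 had both responders below all 8 IgG tumors, where 9.7% did. These comparisons share the same 2 responders and so are not independent. With responder replicate 15 or 16 left out, the log2 fold changes of the 5 selected genes stayed between -2.01 and -1.54 against non-responders and between -1.86 and -1.39 against IgG controls. What moved was the p-value in a group of 1 tumor, whose spread was taken from the other groups. By that p-value, 2 of the 6, Atg9b and Cdkn2b, were called lower than in non-responders and than in IgG controls without replicate 15. Without replicate 16, 4 were called lower than in non-responders (all but Gm12606 of the 5) and 3, Atg9b, Strc and Cdkn2b, than in IgG controls. Without the 3 tumors of high mitochondrial share, the log2 fold changes against non-responders and IgG controls were -1.84 and -1.77 for Cdkn2b, -1.66 and -1.30 for Pitx1, -1.67 and -1.46 for Atg9b and -1.59 and -1.44 for Strc. Without IgG replicate 3, those against IgG controls were -1.72 for Cdkn2b, -1.62 for Gm12606, -1.59 for Pitx1, -1.53 for Atg9b and -1.51 for Strc.

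Of the 61 genes that met the selection rule, Cdkn2b was at rank 5 with -1.65. The 3 genes just outside the selection were Gm11476 at -1.61, Shisal2b at -1.49 and Cfap69 at -1.47. The step from the last selected gene to the next was thus small against the SE of each (0.26 for Cdkn2b and 0.54 for Gm11476). Shisal2b had 16.9 and 24.6 CPM in the responders and 37.4 to 87.5 CPM in the non-responders, with its top 2 non-responder values in replicates 9 and 14.

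Per kilobase of exon, the scale on which genes can be compared with each other, Cdkn2b was the highest of the 6 in IgG controls, at 19.1 ± 4.5 CPM per kilobase (SD, n = 8). Gm12606 followed at 10.2 ± 6.5 and Pitx1 at 4.40 ± 2.36. Cdkn2a at 2.09 ± 0.45 and Strc at 1.93 ± 0.64 differed by less than their SD, and Atg9b was lowest at 0.90 ± 0.22. In the responders Cdkn2b stood at 5.99 ± 0.37 and Atg9b at 0.314 ± 0.021 (SD, n = 2).

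The non-responders did not differ detectably from the IgG controls in any of the 6 genes. By edgeR, 0 of 6 passed at an adjusted p below 0.05 and 0 at an unadjusted p below 0.05, where 0% of the 18251 tested genes passed the first and 694 genes the second. DESeq2 passed 10 genes in this comparison, with 787 at an unadjusted p below 0.05, and 0 of the 6 at either. The log2 fold change was -0.02 (95% interval -0.35 to 0.31) for Cdkn2b and 0.20 (-0.18 to 0.59) for Cdkn2a. It was 0.26 (-0.38 to 0.91) for Gm12606 and 0.12 (-0.40 to 0.64) for Pitx1. For Atg9b it was 0.32 (-0.10 to 0.75) and for Strc 0.15 (-0.27 to 0.56), with adjusted p between 0.987 and 0.994 for the 6 genes. The log2 fold changes of responders against non-responders lie below these intervals for all 6 genes. For 5 of them the selection used this same log2 fold change, and both comparisons share the non-responders, so this is no test. In order of group mean, Cdkn2b was highest in IgG controls and the other 5 in non-responders, but these neighbors in the order were within their spread, and the responders were lowest for every gene.

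**Figure D2:**
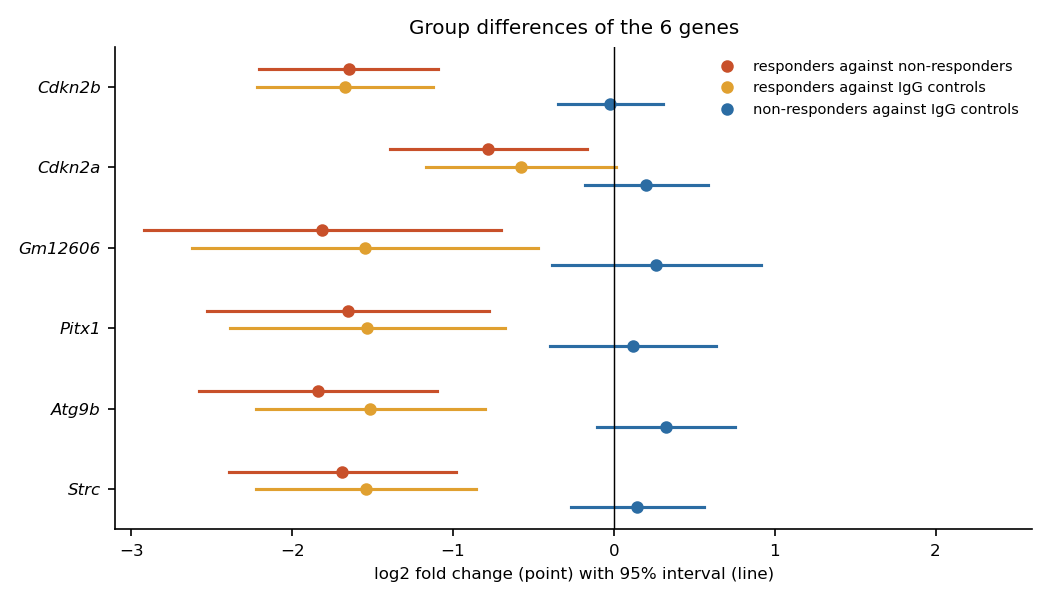
Log2 fold changes (horizontal axis, points) with 95% intervals (lines) of the 6 genes for the 3 group comparisons of the edgeR fit. The intervals of non-responders against IgG controls all cover 0, and in both responder comparisons Cdkn2a lies closer to 0 than the 5 genes that were selected on their responder values.

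The stretch of chromosome 4 around the 3 genes was examined through the 5 nearest tested genes on each side. Those before Gm12606 lie 54617 to 434572 bases from it. Those after Cdkn2b lie 368396 to 4023098 bases from it, so they are not all close to the locus. Of these 10 genes, 8 had a log2 fold change below 0 in responders against non-responders, with a median of -0.49, beside a median of 0.02 over all tested genes. Wincr1, a noncoding RNA 151084 bases from Gm12606, fell by 0.99 on the log2 scale (edgeR, SE 0.29, adjusted p = 0.0245) and was the 1 gene of the 10 to pass, where 4.34% of the tested genes passed as lower. It had 3.02 and 4.30 CPM in the responders, 5.07 to 10.97 CPM in non-responders and 4.79 to 8.21 CPM in IgG controls, so that the responders lay below all other tumors. Wincr1 did not pass without responder replicate 15 (-0.83, adjusted p = 0.307) or in a fit of only responders and non-responders (-1.03, adjusted p = 0.0604). Against IgG controls, where 5.17% of the tested genes passed as lower, 3 of the 10 neighbors did. The median over the 10 was -0.39, beside -0.02 over all tested genes. The 3 that passed were Mtap (-0.66, edgeR, adjusted p = 0.00945), Wincr1 (-0.87, adjusted p = 0.0363) and Gm12602 (-0.92, adjusted p = 0.0459). Without responder replicate 15, Mtap was at -0.57 (adjusted p = 0.174) and Wincr1 at -0.71 (adjusted p = 0.364), and without IgG replicate 3 Wincr1 was at -0.82 (adjusted p = 0.0559). Both comparisons share the 2 responders.

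Mtap, the methylthioadenosine phosphorylase gene that is often lost together with CDKN2A in human cancers, is the best counted of these neighbors, with 4097 to 10231 counts per tumor. It had 134 and 169 CPM in the responders, 173 to 214 CPM in the non-responders and 156 to 274 CPM in IgG controls. Its log2 fold change was -0.38 (SE 0.17) against non-responders, with an adjusted p of 0.148 by edgeR. Without the 3 tumors of high mitochondrial share the same value was -0.50, with an adjusted p of 0.00261. Gm12602 was at -0.67 (adjusted p = 0.169) and Gm13285 and Gm12607, which had mean levels of 0.204 and 0.111 CPM, were at -0.79 and -0.92 with SE of 0.80 and 1.16. On the other side of Cdkn2b the nearest tested gene, Dmrta1, 368396 bases away, was at 0.06 (SE 0.51), and Elavl2 was at -0.44 (SE 0.27).

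**Figure D3:**
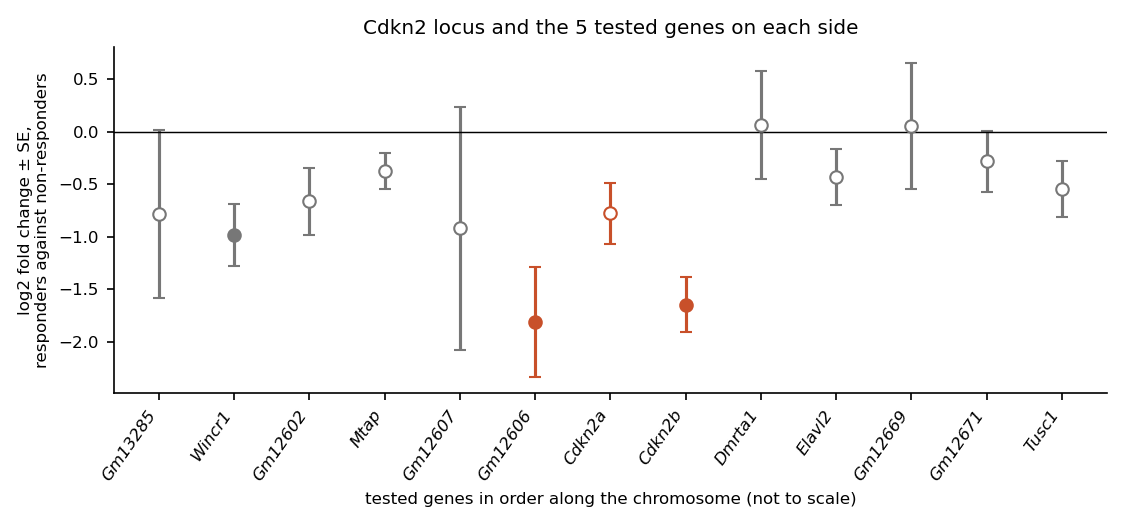
Log2 fold change with SE (vertical axis) in responders against non-responders for Gm12606, Cdkn2a, Cdkn2b (orange) and the 5 nearest tested genes on each side (gray), in chromosome order without scale, with filled points at adjusted p below 0.05. Gm12606 and Cdkn2b lie below -1.5, and the neighbors lie between -0.99 and 0.06.

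Around all 6 genes, 40 different tested genes that are not members were the nearest on either side. Their median log2 fold change in responders against non-responders was -0.13, beside 0.02 over all tested genes. At an adjusted p below 0.05, 1 was lower (Wincr1) and 2 were higher, where 4.34% and 15.4% of the tested genes were. The higher ones, Map1a at 2.01 and Ell3 at 4.37, are near Strc. The neighbors of Atg9b other than Nos3 lay between -0.49 for Fastk and 0.85 for Kcnh2, and none of them passed by edgeR or DESeq2 (0 and 1 at an unadjusted p below 0.05). Those of Pitx1 lay between -0.21 for Caml and 1.64 for Fbxl21, and again none passed by either (1 and 2 at an unadjusted p below 0.05).

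Other genes of the pathways in which the 6 genes act were counted from 8 lists with 112 tested genes of 123. Of these 112 genes, 8 were lower (7.14%, against 4.34% of the tested genes) and 10 higher (8.93%, against 15.4%) in responders than in non-responders (edgeR, adjusted p under 0.05). Without responder replicate 15, 0 were lower and 5 higher. Without IgG replicate 1, 17 were lower, and without it and non-responder replicates 9 and 14, 20 were lower and 16 higher. Without non-responder replicate 14, or without responder replicate 16, 4 were lower. The counts of these lists therefore moved by more than 1.5 times with single tumors. Between non-responders and IgG controls 0 of the 112 passed by edgeR or by DESeq2, with 2 and 3 at an unadjusted p below 0.05.

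Of the 5 other cyclin-dependent kinase inhibitors, 0 passed by edgeR (2 at an unadjusted p below 0.05) and 1 by DESeq2, and all 5 log2 fold changes were above 0, between 0.06 and 1.17 with a median of 0.38. Cdkn2c, which encodes p18Ink4c, had 26.1 and 39.5 CPM in the responders against 21.4 to 26.1 CPM in non-responders (0.47, SE 0.17, adjusted p = 0.0624). Cdkn1c, for p57, had 1.94 and 4.46 CPM in the responders against 0.694 to 2.16 CPM in non-responders (1.17, SE 0.48, adjusted p = 0.105). Cdkn2d, for p19Ink4d, was at 0.06 (SE 0.13). Cdkn1b, for p27, was at 0.38 (SE 0.19, adjusted p = 0.196). The INK4 family members outside the locus, Cdkn2c and Cdkn2d, were thus not lower in responders by point value.

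Among 18 genes for G1 cyclins, their kinases, RB proteins and E2F factors, 3 were lower and 2 higher, with a median of -0.20. Of all tested genes, 4.34% were lower and 15.4% higher. Cdk4, the kinase that p15Ink4b and p16Ink4a inhibit, fell from 282 ± 17 CPM (SD, n = 6) in non-responders to 199 ± 29 CPM (SD, n = 2) in responders (-0.50, SE 0.13, adjusted p = 0.0126). E2f1, a transcription factor released when RB is phosphorylated, fell by 0.48 on the log2 scale (SE 0.13, adjusted p = 0.0126), and Ccnd1, the cyclin D1 gene, was the third to fall. The retinoblastoma gene Rb1 rose from 21.5 ± 3.1 CPM to 35.4 ± 2.1 CPM (0.72, SE 0.18, adjusted p = 0.00724) and its relative Rbl2 rose by 0.58 (SE 0.17, adjusted p = 0.0253).

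In the ARF, Mdm2 and p53 list, 1 of 19 genes was lower and 3 were higher, with a median of -0.09. These counts are near the shares of all tested genes, 4.34% lower and 15.4% higher. Trp53inp1, a stress-induced nuclear protein gene, had 69.7 and 94.9 CPM in the responders against 6.04 to 9.64 CPM in non-responders (3.45, SE 0.19, adjusted p = 9.17e-09). Pmaip1, which encodes the BH3 protein NOXA, rose by 1.66 (SE 0.26) and the death receptor gene Fas by 0.76 (SE 0.21). Sesn2, a stress-induced sestrin gene, fell by 0.74 (SE 0.24, adjusted p = 0.0381). Fas and Pmaip1 are also expressed by lymphocytes, whose markers were higher in responders. The part of these cells in the values of this list, Trp53inp1 included, was not tested.

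In the list of 17 polycomb and H3K27 regulators, 1 was lower and 3 were higher, with a median of -0.08. Of all tested genes, 4.34% were lower and 15.4% higher, so these counts are near that background. Cbx7, a polycomb chromobox protein known to repress the Cdkn2 locus, rose from 22.3 ± 4.6 CPM in non-responders to 68.6 ± 25.6 CPM in responders (1.62, SE 0.20, adjusted p = 1.35e-05). Jarid2, a subunit of polycomb repressive complex PRC2, rose by 1.07 (SE 0.14, adjusted p = 2.29e-05) and the methyltransferase gene Ezh1 by 0.40 (SE 0.13, adjusted p = 0.0410). Cbx2 fell by 0.46 (SE 0.15, adjusted p = 0.0384). Lymphocyte markers were higher in responders, and their part in the values of this list was not tested. A link between Cbx7 and the levels of Cdkn2b or Cdkn2a was not tested either.

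Of 11 TGF-beta pathway genes 1 passed, as lower, where 4.34% of all tested genes did, and the list's median was 0.10. It was the ligand gene Tgfb3, which fell from 75.7 ± 8.6 CPM to 53.9 ± 1.6 CPM (-0.49, SE 0.16, edgeR, adjusted p = 0.0353). The receptor gene Tgfbr2 was at 0.54 (adjusted p = 0.0865) and the ligand gene Tgfb1 at 0.36 (adjusted p = 0.192). Of 30 core autophagy genes 0 passed by edgeR (4 at an unadjusted p below 0.05) and 2 by DESeq2, with values between -0.56 for the cargo receptor gene Sqstm1 and 0.47 for Pik3c3, the class III lipid kinase gene, and a median of 0.07. Atg9b thus stood outside the range of that list, as its selection required.

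The list for Pitx1 held its paralogs and genes that are of the hindlimb or linked to PITX1. Of these, 6 of 9 were tested, 2 were lower and 1 was higher, with a median of -0.63. Among all tested genes 4.34% were lower and 15.4% higher. Isl1, a LIM homeodomain gene that acts early in the hindlimb bud, fell by 1.38 (SE 0.41, adjusted p = 0.0252), from 1.75 to 3.48 CPM in the non-responders to 0.956 and 0.976 CPM in the responders. The posterior Hox gene Hoxc10 fell by 0.80 (SE 0.25, adjusted p = 0.0301), and Hoxc11 was at -0.68 (adjusted p = 0.124). Rasal1, a Ras GTPase activator gene, rose by 3.30 (SE 0.63, adjusted p = 0.00116). For Strc, 7 of 15 genes of the hair bundle and inner ear matrix were tested and 1 was higher. That gene, Pcdh15, a hair bundle cadherin gene, had 2.73 and 6.80 CPM in the responders and at most 0.300 CPM in any other tumor.

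**Figure D4:**
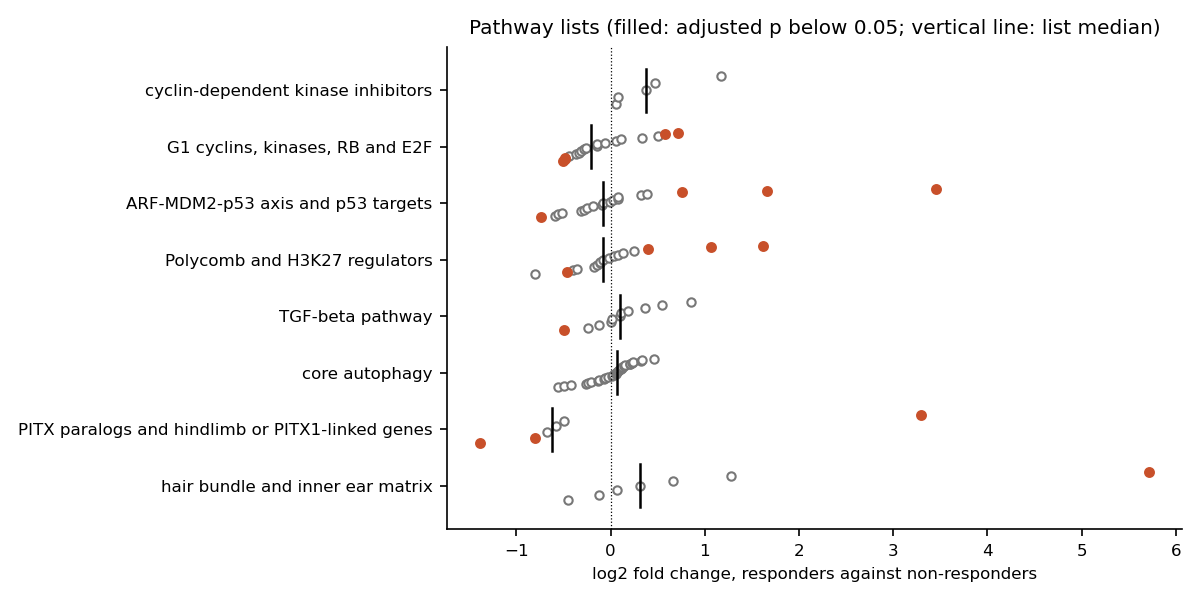
Log2 fold change in responders against non-responders (horizontal axis) of each tested gene in 8 pathway lists, filled where the adjusted p was below 0.05, with a vertical line at each list's median. The 6 members are not shown, no gene of the kinase inhibitor and core autophagy lists passed by edgeR, and genes past the threshold lie on both sides of 0 in the lists for G1 genes, p53, polycomb and Pitx1.

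Markers of other cell types moved with the groups. All 5 T cell markers were higher in responders than in non-responders, and their summed level was 119 to 131 CPM against 6.91 to 19.3 CPM, with 4.02 to 14.7 CPM in IgG controls. All 5 B cell markers were higher too, with sums of 243 to 952 CPM against 1.12 to 5.10 CPM, and all 5 adipocyte markers, with 213 to 1180 CPM against 19.3 to 50.2 CPM. Among 6 leukocyte markers 5 were higher, with sums of 1211 to 1614 CPM against 483 to 626 CPM, and no list had a member at 0 in every tumor. The T cell list does not test the groups independently, since responders were defined by CD8 staining. The part of these cells in the lower values of the 6 genes was not tested.

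Of 7 epithelial markers, the 5 that were tested (Krt8, Krt18, Krt19, Epcam and Cdh1) were higher as well, and the sums of the 7 were 50.5 to 116 CPM in responders, 4.61 to 12.2 CPM in non-responders and 4.95 to 10.2 CPM in IgG controls. Krt18, a simple epithelial keratin gene, had at most 1.80 CPM outside the responders and 11.3 to 33.3 CPM in them. Cdh1, the E-cadherin gene, had 3.75 to 8.12 CPM outside the responders and 8.55 to 9.79 CPM in them. In the 14 other MC38 tumors Krt8, Krt19 and Epcam were also at or below 1.37 CPM. Which cells carried these transcripts was not tested, and the marker values are not read as an amount of carcinoma cells. The endothelial sums were 187 to 338 CPM in responders and 41.1 to 160 CPM in non-responders, with 2 of 5 markers higher. Fibroblast sums overlapped between responders (6957 to 7721 CPM) and non-responders (5766 to 7916 CPM), with 1 of 7 higher, as did macrophage sums (959 to 1072 against 619 to 962 CPM, 1 of 6 higher). Proliferation sums also overlapped, at 1585 to 2081 against 1646 to 2573 CPM, with 1 of 7 lower. None of the 5 skeletal muscle and 4 keratinocyte markers passed by edgeR or DESeq2. At an unadjusted p below 0.05 there were 0 and 1 by edgeR, and 3 and 1 by DESeq2. Keratinocyte sums in responders, 7.23 to 9.55 CPM, lay inside the range of the non-responders (4.25 to 50.2 CPM). Muscle sums were 2.22 to 10.8 CPM in responders, 2.57 to 62.6 CPM in non-responders and 2.47 to 1670 CPM in IgG controls. For muscle, the lower responder was thus below all other tumors.

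The selection compared responders with non-responders, but counts of the IgG tumors entered its average count and the spread in its fit. It was therefore not independent of the IgG tumors. How the 6 genes varied among themselves was examined in these 8 IgG control tumors. The SD of log2 CPM there was 0.70 for Gm12606, 0.58 for Pitx1 and 0.43 for Strc, the 95th, 92nd and 81st percentiles of the 12032 genes that averaged 100 counts or more, whose median SD was 0.26. Cdkn2b, Cdkn2a and Atg9b had SD of 0.35, 0.32 and 0.30. Without IgG replicate 1 the SD of Gm12606 was 0.37 and that of Pitx1 0.26, so that this tumor set much of their spread.

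Over the 8 IgG tumors, 1 of 15 pairs passed by Pearson r after adjustment over the pairs, and 0 by Spearman rho. Gm12606 and Pitx1 had r = 0.97 (exact permutation p = 0.000918, adjusted p = 0.0138) and rho = 0.88 (exact permutation p = 0.00724, adjusted p = 0.0804), and r = 0.81 without the 2 tumors farthest from the median of Gm12606. Cdkn2a and Cdkn2b had r = 0.52 (exact permutation p = 0.187, adjusted p = 0.312) and rho = 0.43 (exact permutation p = 0.299, adjusted p = 0.499), and r = 0.40 without the 2 tumors farthest from the median of Cdkn2b. Gm12606 and Cdkn2a had r = 0.73 (exact permutation p = 0.0423, adjusted p = 0.157) and rho = 0.86 (exact permutation p = 0.0107, adjusted p = 0.0804). Gm12606 and Cdkn2b had r = 0.10 (exact permutation p = 0.851, adjusted p = 0.912). No pair of Cdkn2 locus genes passed after adjustment, so they were not shown to vary together over all 8 tumors. Without IgG replicate 3, 0 of 15 pairs passed by either measure (smallest adjusted p = 0.0685 for Pearson and 0.331 for Spearman, exact permutation). By Pearson, 3 were at an unadjusted p below 0.05 (exact permutation). Gm12606 and Pitx1 had r = 0.97 there, and Cdkn2a and Cdkn2b r = 0.19.

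Without IgG replicate 1, a choice made after the data were seen, 4 pairs passed by Pearson r over the remaining 7 tumors. By Spearman rho 1 passed, Pitx1 and Cdkn2b (adjusted p = 0.0417, exact permutation). The adjusted p for rho of Gm12606 was 0.119 with Cdkn2b, 0.119 with Cdkn2a and 0.128 with Pitx1 (exact permutation). Pitx1 and Cdkn2b had r = 0.95 (exact permutation p = 0.000397, adjusted p = 0.00595) and rho = 0.96 (exact permutation p = 0.00278), against r = 0.02 with that tumor. Gm12606 and Cdkn2b had r = 0.93 (exact permutation, adjusted p = 0.0253), against 0.10 with it, Gm12606 and Pitx1 had 0.89 (exact permutation, adjusted p = 0.0367), and Gm12606 and Cdkn2a had 0.86 (exact permutation, adjusted p = 0.0424). Cdkn2a and Cdkn2b had r = 0.79 (exact permutation p = 0.0355, adjusted p = 0.0888). IgG replicate 1 held the highest Gm12606 and Pitx1 values of all tumors but a Cdkn2b value of 20.7 CPM, near the low end of its group. Strc had r between -0.34 and 0.14 with the other 5 genes in these 7 tumors. Without IgG replicates 1 and 3, 1 pair passed by Pearson r over the 6 tumors left. By Spearman rho 0 passed (smallest adjusted p = 0.25, exact permutation). Pitx1 and Cdkn2b had r = 0.90 (exact permutation p = 0.00278, adjusted p = 0.0417), Gm12606 and Cdkn2b 0.88 (adjusted p = 0.160), Gm12606 and Pitx1 0.81 (adjusted p = 0.160), Gm12606 and Cdkn2a 0.74 (adjusted p = 0.349) and Cdkn2a and Cdkn2b 0.58 (adjusted p = 0.632, all by exact permutation).

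In the 14 tumors outside the responders, each centred on its group mean, the same contrast appeared. Gm12606 and Cdkn2b had r = -0.06 over 14 tumors and r = 0.90 over the 11 without the 3 of high mitochondrial share. Pitx1 and Cdkn2b went from -0.0023 to 0.72, and Cdkn2a and Cdkn2b from 0.54 to 0.77. Without IgG replicate 3 as well, over 10 tumors, these pairs had r = 0.84, 0.56 and 0.58. Over the 14 tumors the mitochondrial share on the log2 scale had r = 0.83 with Gm12606, 0.75 with Atg9b, 0.74 with Strc, 0.65 with Pitx1, 0.18 with Cdkn2a and -0.57 with Cdkn2b. Over the 11 tumors these values were -0.06, 0.35, 0.13, -0.46, -0.11 and -0.28. All points share their library, so scaling and the makeup of each tumor enter both measures, and these values are descriptions.

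**Figure D5:**
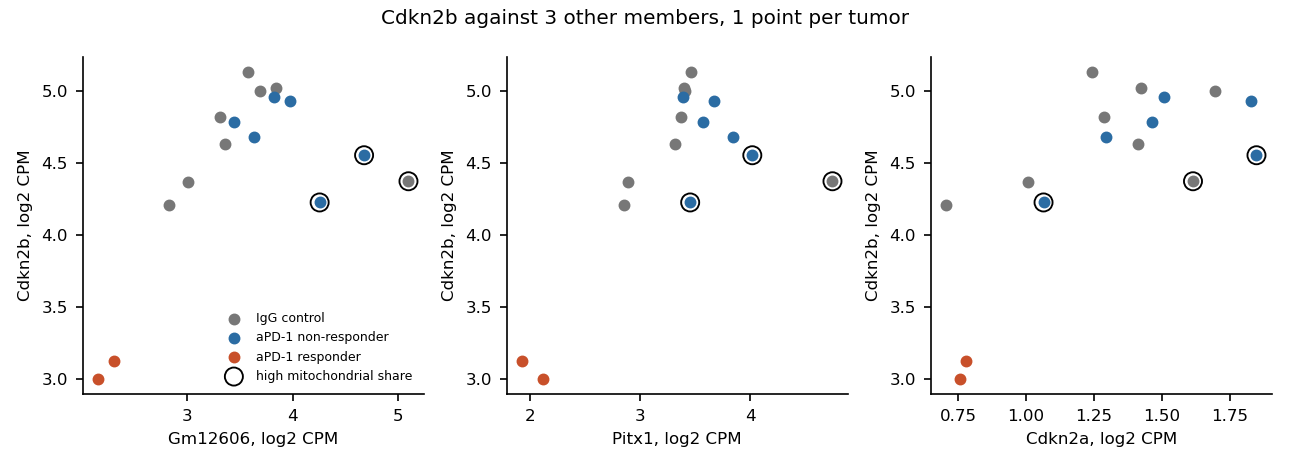
Cdkn2b (vertical axes, log2 CPM) against Gm12606, Pitx1 and Cdkn2a (horizontal axes, log2 CPM), with 1 point per tumor colored by group and a ring around the 3 tumors of high mitochondrial share. IgG replicate 1, the ringed gray point, lies far to the right for Gm12606 and Pitx1 at a Cdkn2b level near the low end of its group, and the responders lie at the lower left.

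Marker scores, each the mean log2 CPM of a list's tested genes, were set against the 6 genes in the 8 IgG tumors. None of the 30 relations with leukocyte, fibroblast, epithelial marker, skeletal muscle and proliferation scores passed after adjustment. The smallest adjusted p was 0.468 for Pearson and 0.412 for Spearman (exact permutation), with r from -0.77 to 0.67. Without IgG replicate 1, again 0 of 30 passed (smallest adjusted p = 0.0536 for Pearson and 0.240 for Spearman, 3 at an unadjusted p below 0.05, exact permutation), but signs turned: the proliferation score went from r = -0.63 to 0.76 with Atg9b (unadjusted p = 0.00179, exact permutation), from -0.76 to 0.74 with Pitx1 and from -0.73 to 0.61 with Gm12606. The epithelial marker score went from 0.27 to 0.81 with Gm12606 and from 0.67 to 0.80 with Cdkn2a. Without replicate 3, and without replicates 1 and 3, 0 passed as well. The smallest adjusted p was 0.375 and 0.681 for Pearson and 0.833 and 0.0833 for Spearman (exact permutation). By Pearson, 2 and 1 were at an unadjusted p below 0.05 (exact permutation).

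The genes most like each member over the 14 tumors, each centred on its group mean, were taken from 12032 genes. They are described by Pearson r without a test. For Gm12606 they were Mrps21 (0.98), Polr2f (0.97) and Dpm2 (0.96), which had 0.92, 0.92 and 0.86 over the 11 tumors of lower mitochondrial share. For Cdkn2b they included Gramd3 (0.92) and Acyp2 (0.91), with 0.89 and 0.88 over 11 tumors. Gramd3 was higher in responders than in non-responders (1.19, edgeR, adjusted p = 0.000117) although it followed Cdkn2b in the other tumors, and Acyp2, at -0.14, did not pass.

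Cdkn2a was most like Ska1 (0.84), a spindle and kinetochore gene, then Arpp19 (0.84) and Caml (0.82). Ska1 fell by 0.54 in responders (edgeR, adjusted p = 0.0314), while Arpp19 and Caml, at -0.19 and -0.21, did not pass. Pitx1 was most like Knop1 (0.96), 2310033P09Rik (0.96) and Wdr83 (0.95), Atg9b like 2810402E24Rik (0.91), Nutf2-ps1 (0.89) and Abraxas1 (0.89), and Strc like Gpatch1 (0.90), Tnf (0.90) and Plcb2 (0.88). Of the most alike genes named here, Ska1 was the 1 that passed as lower in responders, and Gramd3 and Plcb2 passed as higher.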

How the data were processed

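Per the labels and the study's methods, the authors used STAR 2.6 to align paired reads of 150 bases from a directional poly(A) library to GRCm38 (Ensembl release 91 genes), and deposited expected counts per gene estimated by RSEM 1.3.0, without normalization. Reads that fit more than 1 gene are shared out among them in such values. They were rounded to whole counts here. Of 53557 table entries, 92 name no gene (at most 185 counts in a tumor, up to 0.000549% of its counts) and were left out. GENCODE mouse release 21 gave symbols and positions for 53360 of 53465 genes. Promoter sequences came from RefSeq (GRCm38.p6). Pitx1 and Gm12606 had no promoter entry.

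Total counts per tumor lay between 26603477 and 39948874, and the precision of a value follows its count. Each tumor came from another mouse and counted as 1 replicate, and no 2 tumors were copies (lowest chi-square per degree of freedom 16.1). edgeR 4.0.16 in R 4.3.3 fitted all 16 tumors in 3 groups, with TMM scaling, edgeR's low-count filter, robust dispersions and the quasi-likelihood test, adjusted by Benjamini-Hochberg over 18251 genes. Calls needed an absolute log2 fold change above 1 at an adjusted p under 0.05. With 1 responder left, its spread was taken from the other groups. The SE is the log2 fold change divided by the root of the F statistic. The fit was tested on simulated data. Log2 CPM used a prior count of 2. Correlations used exact permutation tests, two-sided.

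The members and gene lists were chosen with earlier results of these data known. Genes named are the members, the 3 next by the same rule, the 5 nearest tested genes on each side, Nos3, the 3 most alike genes of each member (1 result is not reported here), and up to 4 genes of smallest p per pathway list and up to 2 of highest mean CPM per cell type list. Ccnd1, CT010467.1, Lars2, mt-Rnr2, mt-Rnr1, Gm26917, Cdx2, Vil1, Krt8, Krt19 and Epcam were named after their values were seen. Alternatives were DESeq2 1.42.0, median-of-ratios size factors, no filter, at least 10 counts in 8 tumors, a fit restricted to the groups compared, and each tumor left out in turn, and, added after the data were seen, the 3 tumors of high mitochondrial share together and IgG replicates 1 and 3, singly and together, for the correlations. Spatial and histology data were not analysed here.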

Additional observations from a re-analysis of the deposited data

Results flagged for a closer look

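In groups of 6 or 8 tumors, the highest and lowest values of 9 genes were compared with the rest of their group (Dixon's criterion at 95%, 18 groups in all, of which chance flags about 1 in 20). IgG replicate 1 stood apart in 3 of them. It was the highest of the 8 IgG tumors for Gm12606, at 34.3 CPM, and for Pitx1, at 26.8 CPM, and the lowest for Mtap, at 155.7 CPM. This tumor also had the highest share of mitochondrial counts, 7.60%, and the lowest total count, 26603477. The part of either in these values was not tested.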

How the results depend on the processing

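All 6 members kept a negative log2 fold change in responders against both other groups under every alternative run. With 1 responder left, the log2 fold changes of the 5 selected genes stayed between -2.01 and -1.39, and the calls lost there were lost by the p-value in a group of 1 tumor. Leaving out 1 tumor at a time, genes called numbered 923 to 2601 (2410 with all tumors) in responders against non-responders, 1243 to 2949 (2729) against IgG controls and 0 to 2 (0) in non-responders against IgG controls. Members called lower numbered 2 to 5 against each of the other groups. Pathway genes numbered 0 to 17 lower (8) and 5 to 12 higher (10), and r of Cdkn2a and Cdkn2b over the IgG controls 0.19 to 0.79 (0.52), with the highest without replicate 1 and the lowest without replicate 3.

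Between non-responders and IgG controls DESeq2 called 4 genes, and 1 was called without the 3 tumors of high mitochondrial share. Requiring 10 counts in 8 tumors left 5 pathway genes lower. Without the 3 tumors 20 were lower and 16 higher. In a fit of only responders and IgG controls 4 members were called lower, and Gm12606 was not (-1.53, adjusted p = 0.0757). Among the alternatives for single members, 4 of 132 fits in responders against non-responders and 6 of 132 against IgG controls lost an adjusted p below 0.05, and 4 of the former, all for Cdkn2a, gained it, and the cause was not tested. With counts of 42 in a tumor, small differences in Atg9b and Cdkn2a were not detectable. No paired analysis was possible because no replicate number is shared between groups.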
